A study of Mus musculus with 8 samples.

Results

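A set of 10 genes of the cellular oxygen response was followed in tumour-infiltrating neutrophils: the hypoxia-inducible factor (HIF) subunits Hif1a, Epas1 and Arnt, the oxygen-sensing genes Vhl, Egln1 and Egln3, and the hypoxia targets Bnip3, Bnip3l, Hilpda and Ndrg1, none of which is a glycolytic enzyme. They were taken by gene name from the count table, which held all 10 among its 54532 genes. Cells of the mouse mammary tumour line 2208L had been grown in the fat pad of Balb/c mammary glands, and the tumours were dissociated at a diameter of 1 cm. Flow sorting split the neutrophils by surface ICAM1 (CD54), an adhesion molecule, into the fractions called ICAM1high and ICAM1low. Each fraction had 4 replicates labelled as biological, giving 8 mRNA-seq libraries of 100 ng of total RNA. No sample was treated, every animal carried a tumour, and the labels give no age, sex or number of mice. The question addressed is how the RNA of these genes differed between the ICAM1high and ICAM1low neutrophils of a tumour.

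HIF is a pair of an oxygen-regulated alpha subunit, encoded by Hif1a or Epas1, and the constant partner encoded by Arnt. In oxygen, prolyl hydroxylases (Egln genes) mark the alpha subunit, and the von Hippel-Lindau protein (Vhl) carries it to the proteasome; when oxygen is short, the pair binds hypoxia response elements and raises its targets. In myeloid cells Hif1a is best known for glycolysis, survival and antimicrobial function. Control of the alpha subunits is largely at the protein level, which RNA counts do not measure.

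The libraries held 10328575 to 22751975 counts, of which the 10 genes took 0.137% to 0.185% in ICAM1high and 0.158% to 0.254% in ICAM1low. Icam1 itself was 1459 ± 202 CPM (counts scaled to the size of the library; SD, n = 4) in ICAM1high and 848 ± 214 in ICAM1low, with every ICAM1high library above every ICAM1low library. The summed CPM of 20 neutrophil markers was 12328 to 16680 in the ICAM1high libraries and 50056 to 96359 in the ICAM1low libraries. That of 20 macrophage and monocyte markers was 11342 to 18402 and 1287 to 1957. RNA of both marker sets was thus present in both fractions and differed between them, and their part in the results below was not tested. The other summed marker levels were lower: 132 to 194 CPM in ICAM1high and 308 to 542 in ICAM1low for 12 epithelial tumour markers, 101 to 151 and 155 to 236 for 10 fibroblast and pericyte markers, 17.5 to 35.7 and 23.2 to 28.1 for 10 dendritic cell markers, and 27.3 to 58.5 and 14.7 to 23.7 for 14 T, NK and B cell markers. In bulk RNA of sorted cells, fewer cells of a type and less RNA per cell cannot be told apart. ICAM1high replicate 1 and ICAM1low replicate 4 stood apart from their groups on the second principal component (22% of the variance), with scores of 61.6 against -18.2 to 0 and of 74.5 against -63 to -13.4. Genes of at most 1000 bases took 5.88% and 11.2% of the counts of these 2 libraries, against 3.47% to 3.65% and 4.68% to 6.42% in the others of their groups. Fold changes of the 10 genes are therefore also given without both.

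The sequences before the start sites are shown first because HIF response elements of many known targets lie near the start. A window of 300 bases, 250 before and 50 from the start, was read from RefSeq (GRCm38.p6) for 7 of the 10 genes, in 8 windows. Epas1, Bnip3l and Ndrg1 had no window there. The core letters of the hypoxia response element, ACGTG and GCGTG, were searched on both strands. CACGTG reads the same on both strands, so it counts as a pair of cores, and it is also the letters of an E-box. At least 1 core was found in 7 of the 8 windows (87.5%), against 43.8% of all 32851 windows of the same length. The windows of the pair of Hilpda starts overlap, and the GCGTG at 28 of the first is the one at -111 of the second, so 1 core counts in both. Median GC content was 63.5% in the 8 windows and 52.7% in all windows. At least 3 cores were found in 3 windows (37.5%), against 8.93% of all windows. A match is a description of letters, not of HIF binding. The sequences before the start of 3 genes whose RNA fell are printed 5′ to 3′ on the gene's strand, with the cores of either strand in capitals: Bnip3, with the most cores, Egln3, with 1, and Hif1a.
Bnip3, chr7:138909520-138909756, minus strand: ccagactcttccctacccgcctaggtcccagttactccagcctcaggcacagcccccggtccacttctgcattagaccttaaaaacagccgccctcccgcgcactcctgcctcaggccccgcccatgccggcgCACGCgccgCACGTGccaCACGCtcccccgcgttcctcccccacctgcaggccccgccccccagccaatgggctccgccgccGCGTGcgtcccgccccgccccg
Egln3, chr12:54203875-54204124, minus strand: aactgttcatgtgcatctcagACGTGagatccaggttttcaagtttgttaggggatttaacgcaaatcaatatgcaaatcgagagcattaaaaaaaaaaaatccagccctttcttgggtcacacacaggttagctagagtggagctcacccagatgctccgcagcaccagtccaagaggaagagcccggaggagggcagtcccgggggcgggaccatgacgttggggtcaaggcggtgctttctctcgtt
Hif1a, chr12:73907617-73907866, plus strand: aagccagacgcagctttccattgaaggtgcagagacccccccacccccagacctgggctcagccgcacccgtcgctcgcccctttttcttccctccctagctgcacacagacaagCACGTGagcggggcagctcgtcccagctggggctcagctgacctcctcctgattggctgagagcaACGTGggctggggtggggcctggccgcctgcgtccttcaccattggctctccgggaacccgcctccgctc
In Bnip3 the cores began at -117, -108, -107, -99 and -35 from the start site, those at -108 and -107 being a CACGTG. Egln3 had its core at -229. The Hif1a window lies inside the wider gene span of the count table and had cores at -135, -134 and -70, of which the first pair is again a CACGTG. Hilpda had its ACGTG at -43 of its second RefSeq start, on the plus strand at chr6:29272571-29272599, with that core in capitals. That stretch lies downstream of the first Hilpda start, at 29272488, within an annotated exon of the gene. The window of the second start also had GCGTG at -111 and at -8.
Hilpda: gatggccagcggACGTGccccagggcgag
Cores were also found in the windows of Egln1 (at -126 and -68) and Arnt (at -29), and none in that of Vhl, which says only that these letters are not in its window.

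Of the 10 genes, 6 fell in the ICAM1high fraction: Hif1a, Arnt, Egln3, Bnip3, Bnip3l and Hilpda. None rose, and 4 did not pass the test (Epas1, Vhl, Egln1 and Ndrg1). The test was the quasi-likelihood F test of edgeR at an adjusted p of 0.05, over 14051 genes, 10 of them these. Among all genes tested, 42.1% were called, 19.6% as lower and 22.6% as higher in ICAM1high. The median log2 fold change, ICAM1high over ICAM1low, was -0.82 over the 10 genes and 0.08 over all genes tested. The groups did not overlap, with all ICAM1high libraries lower, for 5 of the 10 genes, against 18% of all genes. Directions depend on how libraries are scaled. With library totals alone in place of the trimmed mean of M-values (TMM), the median of all genes moved up by 0.68 on the log2 scale, and 89% in place of 53.6% of all calls were higher in ICAM1high. By totals, 3 of the 10 genes were lower (Hif1a, Egln3 and Bnip3), against 5.97% of all genes, and 1 was higher (Epas1), against 48.5%. Without the 2 libraries that stood apart, 6 were lower and 1, Epas1, was higher, where 24.5% and 25.5% of all genes were. The log2 fold changes were then -1.46 for Hif1a, 1.21 for Epas1, -0.56 for Arnt, -0.26 for Vhl, -0.42 for Egln1, -1.27 for Egln3, -1.21 for Bnip3, -0.76 for Bnip3l, -1.01 for Hilpda and -0.36 for Ndrg1.

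**Figure D1:**
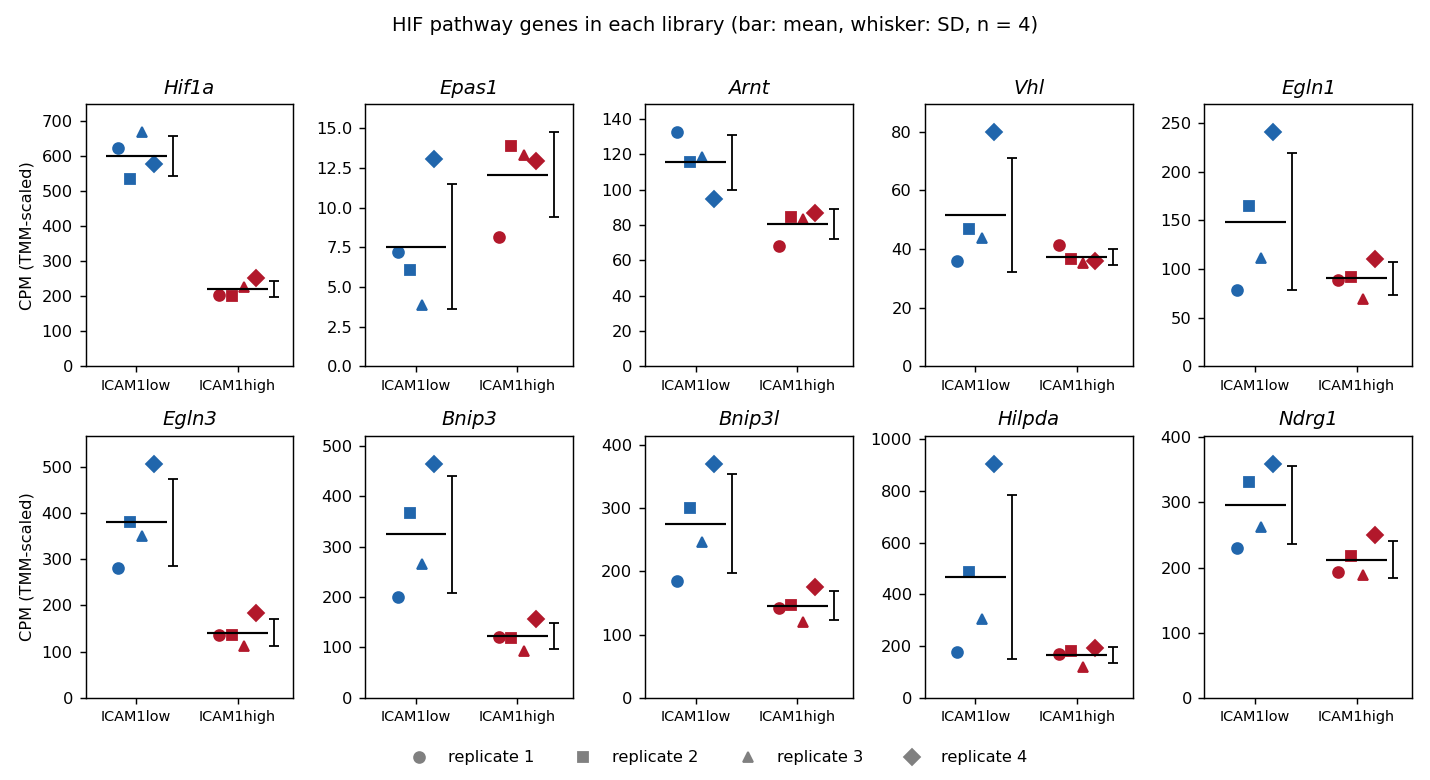
TMM-scaled CPM of each of the 10 genes (y axes, linear from 0) in the 4 ICAM1low and 4 ICAM1high libraries, 1 point per library with its replicate as the shape, bars for the mean and whiskers for the SD. Hif1a, Arnt, Egln3, Bnip3 and Bnip3l do not overlap between the fractions, and ICAM1low replicate 4 is the highest library for Hilpda, at 904 CPM.

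Hif1a (chr12:73901375-73947530, mm10, plus strand), the alpha subunit of HIF-1, stood at 204, 199, 227 and 251 CPM in ICAM1high replicates 1 to 4. The ICAM1low replicates stood at 622, 534, 667 and 578 CPM. The groups were far apart and varied little within themselves. Hif1a was 221 ± 23.8 CPM (SD, n = 4) against 600 ± 57.0, a log2 fold change of -1.45 (SE 0.15, edgeR adjusted p = 5.26e-05; 95% interval -1.77 to -1.12), or 2.72-fold more CPM in ICAM1low. It was lower in ICAM1high in all 21 alternative settings tried, from -1.53 to -0.76. The antisense gene Gm15283, which overlaps Hif1a on the other strand, held counts equal to 1.06% of those of Hif1a.

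Epas1 (chr17:86753907-86833410, plus strand) encodes the other alpha subunit, that of HIF-2, best known in endothelium and kidney and also present in macrophages. Its levels were low, at 8.15, 13.9, 13.3 and 13.0 CPM in ICAM1high and 7.19, 6.05, 3.85 and 13.1 CPM in ICAM1low, from 67 to 327 counts per library. The fractions overlapped through ICAM1low replicate 4, the highest of its group, and ICAM1high replicate 1, the lowest of its own. The log2 fold change was 0.68 (SE 0.35, edgeR adjusted p = 0.142; 95% interval -0.09 to 1.45), so no difference passed the test. Without ICAM1low replicate 4 it was 1.09 (edgeR adjusted p = 0.0103), without both libraries that stood apart 1.21 (0.00221), and by library totals 1.41 (0.00522). The summed CPM of 12 endothelial markers was 20.9 to 38.8 in ICAM1high and 19.8 to 51.8 in ICAM1low, and 29.5 in ICAM1low replicate 4. The macrophage and monocyte marker sum was 1957 CPM in that library, the highest of its group, where the others had 1287, 1526 and 1364. In ICAM1high, replicate 1 had the highest sum of its group, 18402 CPM against 11342 to 13744, and the lowest Epas1. The part of these markers in the Epas1 level was not tested.

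Arnt (chr3:95434388-95497240, plus strand), the shared beta subunit, was 68.0, 84.7, 83.5 and 86.6 CPM in ICAM1high and 132, 116, 119 and 94.9 CPM in ICAM1low. The closest libraries of the fractions were 86.6 and 94.9 CPM, so the groups were separate but near. Arnt fell by 0.52 on the log2 scale (SE 0.15, edgeR adjusted p = 0.0206; 95% interval -0.86 to -0.18). Arnt was called lower in 15 of the 21 alternatives, the fewest of the 6 genes. The call was lost without ICAM1low replicate 1 (-0.44, adjusted p = 0.0508) or ICAM1low replicate 3 (-0.51, 0.0511), and by library totals the value turned to 0.17 (0.482).

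The alpha subunits were also compared within each library, where no scaling enters. Epas1 counts were 4.00%, 6.99%, 5.87% and 5.18% of Hif1a counts in ICAM1high, and 1.16%, 1.14%, 0.58% and 2.27% in ICAM1low. Every ICAM1high library had a larger share than every ICAM1low library. The log2 ratio differed by 2.23 (SE 0.44), a 4.69-fold difference. The exact two-sided permutation test gave p = 0.0286, adjusted over 3 ratios 0.0286, which is the smallest p that 4 against 4 libraries allow. The ratios use the same counts as the fold changes. Of all 14051 genes tested, 2534 were lower and 3291 higher in ICAM1high without overlap between the fractions. Ratios of other gene pairs were not examined, so no share over all pairs is given.

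Vhl (chr6:113623959-113631633, plus strand), the substrate receptor that recognises hydroxylated alpha subunits, was 41.2, 36.5, 35.2 and 35.9 CPM in ICAM1high. In ICAM1low it was 35.7, 46.7, 43.8 and 79.7 CPM, a wide spread that takes in part of the ICAM1high range. The log2 fold change was -0.47 (SE 0.23, edgeR adjusted p = 0.128; 95% interval -0.98 to 0.05), and 0.24 by library totals. Without ICAM1low replicate 4 it was -0.18, and without both libraries that stood apart -0.26. No alternative called Vhl.

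Egln1 (chr8:124908587-124949324, minus strand) encodes PHD2, the main hydroxylase of HIF-1 alpha at rest and itself a HIF target. It was 89.1, 92.1, 69.6 and 111 CPM in ICAM1high and 78.9, 165, 111 and 240 CPM in ICAM1low. ICAM1low replicate 1 lay inside the ICAM1high range, while replicates 2 and 4 lay above it. Replicate 3 lay just above it, at 111.2 CPM against 110.7 in ICAM1high replicate 4. The log2 fold change of -0.72 (SE 0.31, edgeR adjusted p = 0.0822; 95% interval -1.40 to -0.04) did not pass. It passed without ICAM1low replicate 1 (-0.93, 0.0175) and in DESeq2 (-0.77, 0.0446), and was -0.01 by library totals. Without ICAM1low replicate 4 it was -0.39 (0.22), and without both libraries that stood apart -0.42 (0.194).

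Egln3 (chr12:54178981-54203860, minus strand) encodes PHD3, a hydroxylase strongly induced by hypoxia and known for a part in neutrophil survival. It was 136, 135, 112 and 183 CPM in ICAM1high and 282, 381, 351 and 507 CPM in ICAM1low, with no overlap. Egln3 fell by 1.43 on the log2 scale (SE 0.22, edgeR adjusted p = 0.000571; 95% interval -1.91 to -0.95), or 2.69-fold less CPM in ICAM1high. It was called lower in all 21 alternatives, from -1.60 to -0.73.

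These hydroxylases stood in different proportions in the fractions. Egln3 counts were 152%, 147%, 161% and 165% of Egln1 counts in ICAM1high and 357%, 231%, 316% and 211% in ICAM1low. The ratio did not overlap between the groups. The log2 ratio was 0.64 ± 0.08 (SD, n = 4) against 1.45 ± 0.36 (SD, n = 4), a difference of -0.80 (SE 0.18; exact two-sided permutation p = 0.0286, adjusted 0.0286).

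Bnip3 (chr7:138890836-138909519, minus strand) encodes a mitochondrial outer membrane protein that binds autophagosomes in mitophagy. It was 121, 119, 93.4 and 157 CPM in ICAM1high and 201, 367, 265 and 464 CPM in ICAM1low. The highest ICAM1high library, at 157 CPM, lay under the lowest ICAM1low library, at 201. Bnip3 fell by 1.40 on the log2 scale (SE 0.26, edgeR adjusted p = 0.00202; 95% interval -1.99 to -0.82), and was called lower in all 21 alternatives, from -1.60 to -0.70.

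Bnip3l (chr14:66985239-67008877, minus strand), the close relative also named NIX and known from the clearing of mitochondria in red cell precursors, was 142, 146, 120 and 176 CPM in ICAM1high. In ICAM1low it was 185, 300.5, 246 and 369.7 CPM. The groups were separate by the gap between 176 and 185 CPM. Bnip3l fell by 0.92 on the log2 scale (SE 0.22, edgeR adjusted p = 0.00706; 95% interval -1.40 to -0.43), and by 0.22 with library totals alone (adjusted p = 0.392). Erythroid RNA was close to 0, with 10 markers summing to at most 4.83 CPM in any library.

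Within each library, Bnip3 counts were 85.5%, 81.3%, 78.1% and 89.4% of Bnip3l counts in ICAM1high and 108%, 122%, 108% and 125% in ICAM1low. Bnip3l was thus the more counted of the pair in every ICAM1high library and Bnip3 in every ICAM1low library. The log2 ratio differed by -0.47 (SE 0.07, exact two-sided permutation p = 0.0286, adjusted 0.0286). The genes of the ratios have lengths of 2265 (Bnip3), 3859 (Bnip3l), 2662 (Egln3), 3594 (Egln1), 5309 (Epas1) and 5896 (Hif1a) bases. The share of counts from short genes differed between libraries, and the part of gene length in the ratios was not tested.

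**Figure D2:**
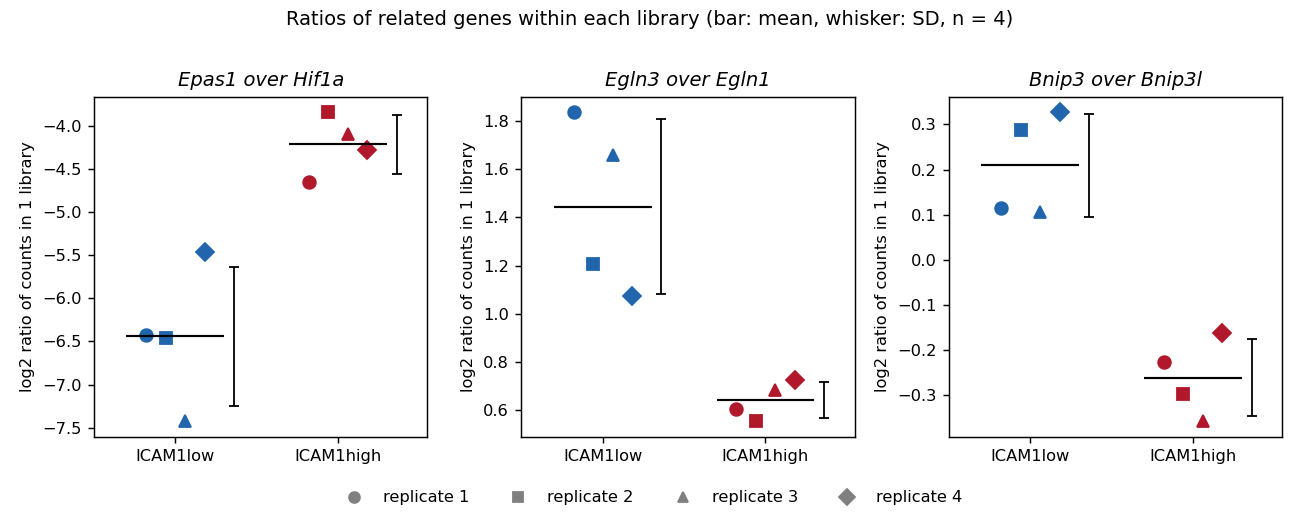
The log2 ratio of counts of Epas1 to Hif1a, Egln3 to Egln1 and Bnip3 to Bnip3l (y axes) in each library, 1 point per library, with bars for the mean and whiskers for the SD (n = 4). No ratio overlaps between the fractions: Epas1 over Hif1a is higher in ICAM1high, the other ratios are lower. Ratios of other gene pairs were not examined.

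Hilpda (chr6:29272488-29275446, plus strand) encodes a small lipid droplet protein that inhibits the triglyceride lipase ATGL. It was 170.4, 181, 120.4 and 191 CPM in ICAM1high and 175, 487, 303 and 904 CPM in ICAM1low. ICAM1low replicate 1, at 175 CPM, lay below ICAM1high replicates 2 and 4, and the highest ICAM1low library was 5.15 times the lowest. Hilpda fell by 1.496 on the log2 scale (SE 0.42, edgeR adjusted p = 0.0156; 95% interval -2.42 to -0.57), with the widest interval of the 10 genes. Without ICAM1low replicate 4 the fall was 0.96 (0.0247), without both libraries that stood apart it was 1.01 (0.0229), and by library totals it was 0.77 (0.109).

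Ndrg1 (chr15:66929318-66969640, minus strand), a hypoxia- and stress-induced gene of differentiation and growth arrest, was 194, 218, 188 and 249 CPM in ICAM1high and 229.7, 331, 263 and 359 CPM in ICAM1low. ICAM1high replicate 4 lay above ICAM1low replicate 1, and the other libraries kept to their sides. The log2 fold change of -0.48 (SE 0.18, edgeR adjusted p = 0.0524; 95% interval -0.88 to -0.08) missed the threshold narrowly. It passed in 6 of 21 alternatives, among them DESeq2 (0.0322), without ICAM1high replicate 4 (-0.58, 0.0459) and without ICAM1low replicate 1 (-0.58, 0.0234), and was 0.21 by library totals (0.345).

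**Figure D3:**
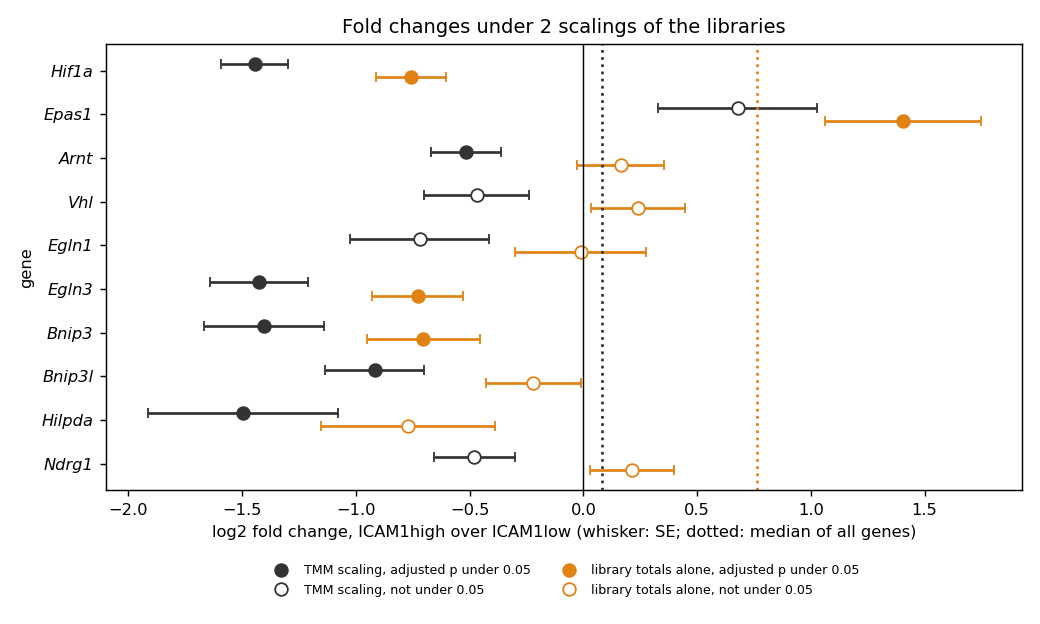
Log2 fold change, ICAM1high over ICAM1low, of each of the 10 genes (x axis) with TMM scaling (black) and with library totals alone (orange); whiskers are the SE, filled points pass an adjusted p of 0.05 and dotted lines are the medians of all genes, 0.08 and 0.76. Every gene but Epas1 lies below 0 with TMM scaling, and Arnt, Vhl and Ndrg1 cross to above 0 with library totals.

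The library names fall into a pair of number ranges, one for replicates 1 and 2 and one for replicates 3 and 4. The names do not say what the numbers mark. Within the first range, Hif1a was -1.52, Egln3 -1.29 and Bnip3 -1.24 on the log2 scale, and within the second -1.43, -1.60 and -1.60. All of these passed with 2 against 2 libraries, at edgeR adjusted p values of 0.00673 to 0.0392. Arnt (-0.70 and -0.38), Bnip3l (-0.76 and -1.12) and Hilpda (-0.91 and -2.02) kept their sign in both ranges without passing in either. The values of Epas1 were 0.74 and 0.57, those of Vhl -0.09 and -0.85, those of Egln1 -0.43 and -1.03, and those of Ndrg1 -0.45 and -0.56. No gene changed sign between the ranges.

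Replicates of the ICAM1low fraction differed from one another in a shared way. Vhl, Egln1, Egln3, Bnip3, Bnip3l, Hilpda and Ndrg1 all had replicate 1 as the lowest, then 3, then 2, and replicate 4 as the highest. The ICAM1low scores on the second principal component had the same order: -63, -28.3, -13.4 and 74.5. Genes outside the 10, such as Tpi1 and Ldha, had it too, so the order was not particular to these genes. How many of all genes share it, or correlate as strongly, was not counted. In ICAM1high, replicate 3 was the lowest and replicate 4 the highest for Egln1, Egln3, Bnip3, Bnip3l, Hilpda and Ndrg1. After removal of the group means, the log2 CPM of the 7 genes correlated pairwise over the 8 libraries at r = 0.68 to 0.99, with a median of 0.95 over 21 pairs. Hif1a did not share this order, with r of -0.37 to 0.03 to the 7, and Arnt ran against it, with r of -0.88 to -0.40. Epas1 lay between, at 0.41 to 0.54. These values describe 8 libraries that differ in depth and in the share of counts from short genes. They include ICAM1low replicate 4 and carry no test. In that library, the farthest of its group on the second component, Hilpda lay 1.21 above its group mean on the log2 scale, Vhl 0.70 and Bnip3 0.59, while Hif1a lay 0.05 and Arnt 0.27 below.

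**Figure D4:**
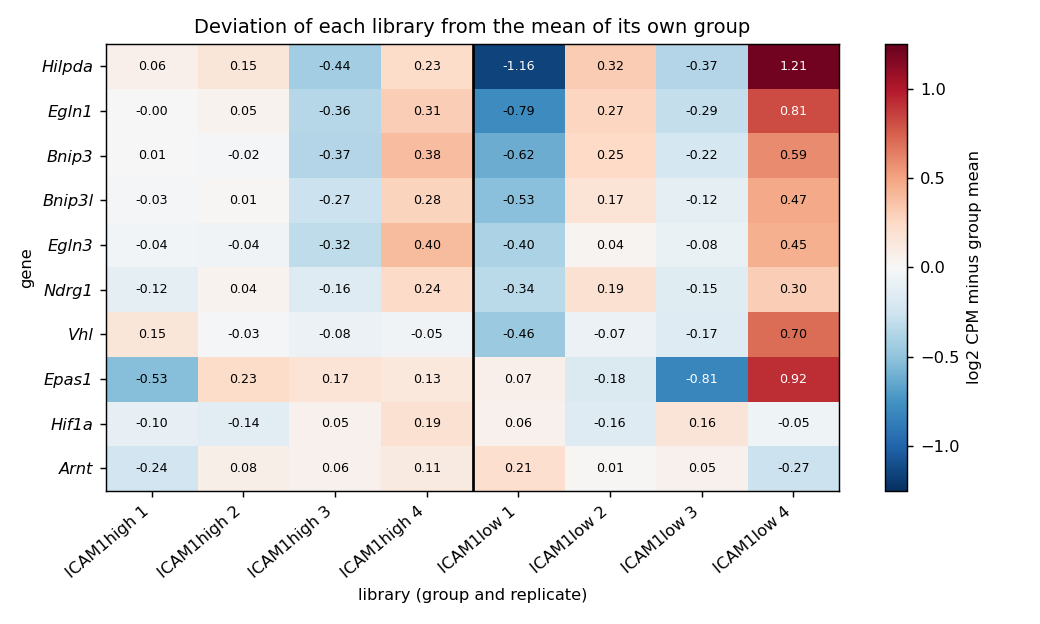
Deviation of each gene's log2 CPM from its group mean (colour and printed value, log2 units) in each of the 8 libraries, the columns. ICAM1low replicate 4 is high and ICAM1low replicate 1 low for 7 genes, with Hif1a, Arnt and Epas1 in other orders.

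Levels per kilobase of gene length allow the genes to be ranked within a fraction. In ICAM1high the mean CPM per kilobase was 150.2 for Hilpda, 54.2 for Bnip3, 53.1 for Egln3, 37.8 for Bnip3l, 37.4 for Hif1a, 32.2 for Ndrg1, 25.1 for Egln1, 12.4 for Vhl, 10.1 for Arnt and 2.28 for Epas1. Hilpda stood clear of all others there, and so did the last 3 genes of the order from each other, whereas Bnip3, Egln3, Bnip3l, Hif1a and Ndrg1 each overlapped with the next in line. In ICAM1low the order was Hilpda at 424, Bnip3 at 143.1, Egln3 at 142.8, Hif1a at 102, Bnip3l at 71.4, Ndrg1 at 44.8, Egln1 at 41.4, Vhl at 17.2, Arnt at 14.4 and Epas1 at 1.42. All neighbours in that order overlapped in ICAM1low except Arnt and Epas1. Hif1a and Bnip3l changed places between the fractions. The alpha subunit Hif1a was thus at a higher level per length than its partner Arnt in both fractions, and Epas1 was the lowest of the 10.

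Among the paralogues of these genes and the related Hif1an, Egln2 was called lower and Ndrg3 higher, where 42.1% of all genes were called. Of the 3 other NDRG genes, 2 were tested and only Ndrg3 was called. Egln2, which encodes PHD1, was 45.2 ± 7.63 CPM (SD, n = 4) in ICAM1high and 65.0 ± 13.1 in ICAM1low and fell by 0.52 on the log2 scale (edgeR adjusted p = 0.0409), with 0.17 by library totals (0.39). Hif1an, the asparagine hydroxylase that blocks co-activator binding, was 25.7 ± 0.967 CPM (SD, n = 4) against 22.5 ± 6.57, a log2 fold change of 0.20 (edgeR adjusted p = 0.464). By library totals Hif1an was 0.88 (0.00616). Hif3a, the third alpha subunit, had 0 to 12 counts per library and was not tested, and Arnt2 gave -0.75 (0.45) at under 2 CPM in every library. Ndrg3 rose in ICAM1high, from 10.4 ± 1.78 to 20.2 ± 2.58 CPM (SD, n = 4), by 0.96 on the log2 scale (edgeR adjusted p = 0.00271).

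Among 22 tested regulators of the pathway, 0 rose and 5 fell, where 22.6% and 19.6% of all genes did, and their median was -0.22 on the log2 scale. The count of lower calls is near the share over all genes. Besides Egln2 these were Cited4 (-1.71), a co-activator binding protein, the ubiquitin ligase Siah1a (-0.84), which acts on the hydroxylases, the ubiquitin-conjugating enzyme Ube2d3 (-0.86) and the chaperone Hsp90aa1 (-0.34, adjusted p = 0.0499; 0.35 by library totals), which was named after its value was seen. By library totals 10 rose and 1 fell, where 48.5% and 5.97% of all genes did.

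Of 40 tested hypoxia targets outside glycolysis and outside the 10 genes, 14 fell and 5 rose, against 19.6% and 22.6% of all genes, with a median of -0.44. Plaur, the urokinase receptor, fell from 1536 ± 194 to 310.1 ± 69.3 CPM (SD, n = 4), a log2 fold change of -2.31. The transcriptional repressor Bhlhe40 fell by 0.95 on the log2 scale. Ppfia4, a liprin, rose from 6.98 ± 0.843 to 46.4 ± 11.3 CPM (SD, n = 4), a log2 fold change of 2.73. Plod1 (0.80), Edn1 (1.52) and Rora (1.30) also rose and were named after their values were seen. By library totals 14 of this list rose and 4 fell, against 48.5% and 5.97% of all genes.

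Of the 21 glycolytic hypoxia targets, 17 fell and 1, the enolase gene Eno2, rose (1.75; named after its value was seen), against 19.6% and 22.6% of all genes, with a median of -1.15. The glucose transporters Slc2a1 (-1.74) and Slc2a3 (-3.11), the lactate exporter Slc16a3 (-2.51) and the regulatory enzyme Pfkfb4 (-1.33) had the smallest p values. By library totals 10 of the 21 fell and 1 rose, against 5.97% and 48.5% of all genes.

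Of the mitophagy receptors, ATG8 proteins and partners of Bnip3, 12 of 20 tested fell and 1, Bcl2, rose (0.98; named after its value was seen), with a median of -0.85. The shares over all genes were again 19.6% lower and 22.6% higher. The receptors Optn (-1.33) and Tax1bp1 (-0.98) and the autophagy initiators Ulk1 (-1.37) and Becn1 (-0.90) fell. Of 21 lipid droplet genes, the setting of Hilpda, 10 fell and 1, the seipin gene Bscl2, rose (1.34; named after its value was seen), with a median of -0.60. Both last-step enzymes of triglyceride synthesis fell, Dgat1 by 2.08 and Dgat2 by 2.32 on the log2 scale. The ATGL inhibitor G0s2 fell by 2.22 and the droplet coat protein Plin5 by 2.19. By library totals 3 mitophagy genes fell and 5 rose, and 5 lipid droplet genes fell and 4 rose, where 5.97% of all genes fell and 48.5% rose. The neutrophil markers, 20 of 20 lower in ICAM1high, and the macrophage and monocyte markers, 18 of 20 higher and 0 lower, differed between the fractions alongside these lists. So did the epithelial tumour markers, of which 8 of 10 tested were lower and 0 higher, with sums that did not overlap between the fractions. The part of these markers was not tested.

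**Figure D5:**
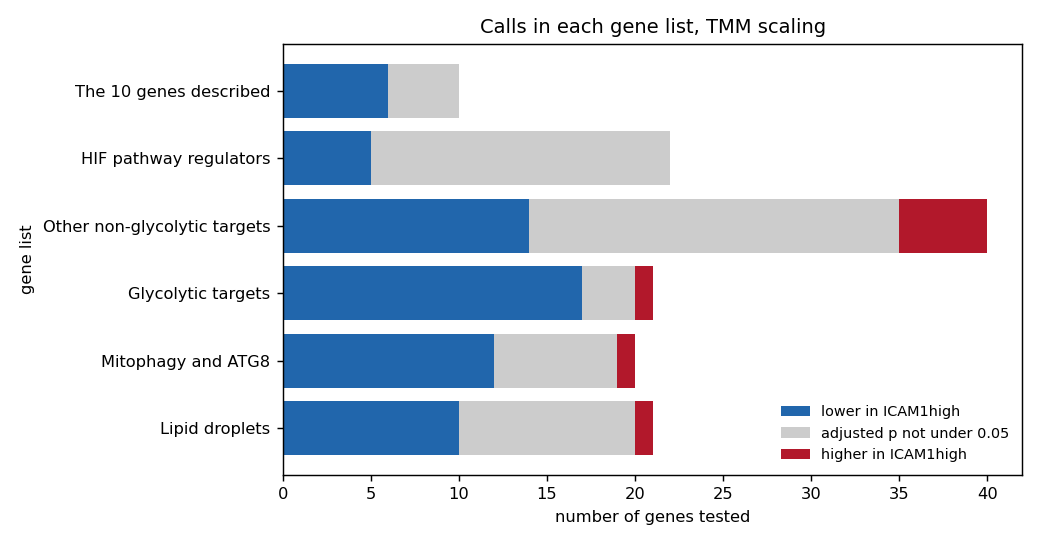
Number of genes called higher, lower or not called (x axis, genes) in the 10 genes described and in the 5 largest pathway lists, from edgeR with TMM scaling. Lower calls (blue) outnumber higher calls (red) in each bar, with 17 of 21 lower among the glycolytic targets; by library totals the regulators, the other non-glycolytic targets and the mitophagy genes had more higher calls.

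Genes with the most similar pattern over the 8 libraries were sought among 7573 genes, by Pearson's r of log2 CPM, as a description that also carries the difference between the fractions. Hif1a lay closest to Ppp1r16b and Mxd1 (both r = 0.999) and Mpzl3 (0.998), and Arnt to Ppp4r1, Mfsd6 and Cmip (0.996 each). Epas1 had weaker neighbours, Cchcr1 (0.944), Tecpr1 (0.928) and Keap1 (0.927), and so had Vhl, with Phyh (0.976), Dnajc8 (0.973) and Tmem263 (0.971). Several of the 10 genes were neighbours of each other. Bnip3 and Bnip3l were each other's nearest gene (r = 0.995), Hilpda was the second gene to Egln1 (0.976), after Zkscan14 (0.994) and before Gsn (0.97), and Bnip3l was the third to Ndrg1 (0.975). Ndrg1 lay closest to P4ha1 (0.995), a collagen prolyl hydroxylase that is also a hypoxia target, and then to Pgm2 (0.978). Egln3 lay closest to Auh (0.996), Slc32a1 and Pfkl (both 0.995), and Hilpda to Ing2 (0.988), Smpdl3a (0.981) and Pcid2 (0.979).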

How the data were processed

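RNA of 4 ICAM1high and 4 ICAM1low libraries was measured by mRNA-seq. The authors deposited 1 table of raw read counts per gene, with gene positions and the gene length in bases, an other quantity used only for levels per kilobase. HISAT2 and mm10 are named per the submitters' processing notes; the sources used here give no version, counting tool, annotation or strand setting, so reads of overlapping genes cannot be told apart. Other rows overlapping the 10 genes held at most 1.06% of their counts.

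The analysis ran in R 4.3.3. The default filterByExpr, given the groups, kept 14051 genes. After TMM scaling, edgeR 4.0.16 compared the groups unpaired by its quasi-likelihood F test, with Benjamini-Hochberg adjustment over all genes tested and a threshold of 0.05. DESeq2 1.42.0 and limma 3.58.1 (voom) were alternatives. Standard errors were derived from the fold change and F. Within-library ratios of counts (plus 0.5) had exact two-sided permutation tests. The script was tested on simulated data. The labels call replicates biological without tying each to a mouse, and p-values therefore reflect only the spread among these libraries. Besides the 10 genes, Icam1 and the paralogues, the named genes were the 4 of smallest p per pathway list (log2 CPM of at least 1) and the 3 of highest r per gene (log2 CPM of at least 3); the members and lists were chosen with earlier results of these data known. Depth was 10328575 to 22751975 counts per library, and Epas1 had the fewest counts of the 10 genes. Some genes that the rule would name are not reported here.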

Additional observations from a re-analysis of the deposited data

Results flagged for a closer look

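Within groups of 4 libraries, 26 groups were examined for a single library far from the rest, where chance alone sets apart about 1 in 20. A pair was found, both in ICAM1high replicate 1. Epas1 was 8.15 CPM there, against 13.0 to 13.9 in the other ICAM1high libraries, a gap of 0.834 of the range. Arnt was 68.0 CPM there, against 83.5 to 86.6, a gap of 0.83 of the range. Both genes encode HIF subunits, and this library also stood apart on the second principal component (61.6 against -18.2 to 0).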

How the results depend on the processing

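Hif1a, Egln3 and Bnip3 were called lower in ICAM1high in all 21 alternatives, Bnip3l and Hilpda in 18 each, and Arnt in 15. With library totals alone 3 of the 10 genes were lower and 1 higher, Arnt turned to 0.165, and all genes gave 6818 higher and 839 lower calls, against 3172 and 2748. In the same setting 10 regulators were higher and 1 lower, 14 non-glycolytic targets higher and 4 lower, 10 glycolytic genes lower, 5 mitophagy genes higher and 3 lower, and 4 lipid droplet genes higher and 5 lower. Without ICAM1high replicate 1 and ICAM1low replicate 4, 1 of the 10 genes was higher and 6 were lower. Of 40 non-glycolytic targets, 8 were then higher and 15 lower, where 25.5% and 24.5% of all genes were. The log2 ratios without these libraries were 2.702 (Epas1 over Hif1a), -0.914 (Egln3 over Egln1) and -0.442 (Bnip3 over Bnip3l). Their exact permutation p was 0.1, the smallest for 3 against 3. Each number range of library names alone, with 2 against 2 libraries, gave 3 of the 10 genes lower; all genes gave 1708 higher and 1416 lower in the first, 1658 and 1604 in the second. Leaving out 1 library at a time gave 0 to 1 of the 10 genes higher and 5 to 7 lower. All genes then gave 2345 to 3403 higher and 2157 to 2927 lower calls. The ratios were 1.903 to 2.558, -0.926 to -0.672 and -0.505 to -0.431, with exact permutation p of 0.0286 to 0.0571.

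Library names share their numbers between the fractions, and no label says whether this marks a shared tumour. Same-numbered libraries correlated at -0.566, 0.21, 0.184 and -0.3 after removal of the group means, which does not settle the pairing, and the comparison was kept unpaired. With the replicate block, 5 of the 10 genes were lower and 0 higher (Arnt was at -0.512, edgeR adjusted p = 0.0888), 3 regulators were lower, and all genes gave 2263 higher and 1975 lower calls. In the replicate block the ratios were 2.23, -0.802 and -0.47 at an exact sign-flip permutation p of 0.125, the smallest for 4 pairs.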
